A study of Mus musculus with 8 samples.

Results

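The genes described here are regulators and markers of the nephron as it forms and divides into segments: Lhx1, Pax8, Cdh6, Pou3f3, Irx1, Irx2, Irx3, Osr2 and Tfap2b. They were measured at embryonic day 15.5 in kidneys of C57BL/6 mouse embryos that were p53 null or p53 wild type, on 8 arrays that each carried null and wild-type RNA in different dyes (Cy3 and Cy5). A probe was taken for a member when the RefSeq identifier printed in the array files belonged to one of the 9 symbols. This gave 15 probes for 9 genes, out of 41174 probes and 17305 named genes. The labels describe 3 biological replicates; replicate 1 had 4 arrays and replicates 2 and 3 had 2 arrays each, with the dyes exchanged on 1 array of every pair. The labels name the genotype alone, and neither the p53 allele nor the number of embryos in an RNA is given in the sources used here. Each ratio is the null signal over the wild-type signal on a log2 scale, so that a negative value is a lower signal in the null kidney, and a mean ± SD runs over the 3 replicates (n = 3). The comparison asks which transcripts differ between embryonic kidneys with and without p53.

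In the embryonic kidney, mesenchymal cells at the tip of the branching ureteric bud gather into an aggregate, become an epithelial vesicle and then bend into a comma-shaped and an S-shaped body. The parts of that body become the glomerulus, the proximal tubule, the loop of Henle and the distal tubule. Pax8 and Lhx1 act while the vesicle forms, Notch signalling and the cadherin encoded by Cdh6 belong to its proximal side, and the Iroquois genes, Pou3f3, Osr2 and Tfap2b are known from the middle and distal parts.

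Cdh6, which encodes a cell adhesion cadherin of the forming nephron, was the only one of the 7 members with a tested probe whose ratio was negative on all 8 arrays. Its mean was −0.60 ± 0.16, or 0.659 of the wild-type level, and no call was made at an adjusted p of 0.05 (limma, adjusted p = 0.279). The size varied with the processing, from −0.53 without background subtraction to −1.16 by the scanner program's own log ratio. The other 6 tested genes had means between −0.14 and 0.07, each with a 95% interval that included 0. Centring each array on its median in place of loess turned the sign for Lhx1, Irx2 and Osr2. It also moved the median of all genes to 0.154, and relative to that median these genes stayed negative (−0.03, −0.008 and −0.12). In replicate 1 the ratio was negative for all 7 tested genes, and in replicate 3 for 1 of 7. Irx3 and Tfap2b gave too little signal to be tested.

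The sequence before the transcription start is shown for the members on which the account turns: Cdh6 for its one direction on every array, Lhx1 and Irx2 for the difference between replicates given further down, and Pou3f3 with Irx2 because they carry the core of the site bound by RBPJ, the DNA-binding partner of Notch. The 250 bases end just before the annotated start, run 5′ to 3′ and come from RefSeq on GRCm38.p6. They lie at chr15:13173676-13173925 on the minus strand for Cdh6, at chr11:84525535-84525784 on the minus strand for Lhx1, at chr13:72628570-72628819 on the plus strand for Irx2 and at chr1:42695518-42695767 on the plus strand for Pou3f3. Capitals mark a match to a searched motif on either strand.
Cdh6: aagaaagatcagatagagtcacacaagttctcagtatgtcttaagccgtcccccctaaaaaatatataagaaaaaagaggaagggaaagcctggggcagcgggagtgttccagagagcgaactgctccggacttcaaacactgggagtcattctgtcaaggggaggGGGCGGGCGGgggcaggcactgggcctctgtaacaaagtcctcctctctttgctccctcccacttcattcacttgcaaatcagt
Lhx1: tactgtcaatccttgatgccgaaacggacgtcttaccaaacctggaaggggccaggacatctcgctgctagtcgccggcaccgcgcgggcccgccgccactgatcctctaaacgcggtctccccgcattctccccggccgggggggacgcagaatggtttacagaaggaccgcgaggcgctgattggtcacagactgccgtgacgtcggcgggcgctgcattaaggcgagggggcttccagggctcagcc
Irx2: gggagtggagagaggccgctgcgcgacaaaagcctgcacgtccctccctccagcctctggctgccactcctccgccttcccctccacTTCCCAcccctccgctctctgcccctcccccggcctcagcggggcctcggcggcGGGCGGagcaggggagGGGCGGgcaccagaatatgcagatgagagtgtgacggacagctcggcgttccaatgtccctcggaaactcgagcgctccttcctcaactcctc
Pou3f3: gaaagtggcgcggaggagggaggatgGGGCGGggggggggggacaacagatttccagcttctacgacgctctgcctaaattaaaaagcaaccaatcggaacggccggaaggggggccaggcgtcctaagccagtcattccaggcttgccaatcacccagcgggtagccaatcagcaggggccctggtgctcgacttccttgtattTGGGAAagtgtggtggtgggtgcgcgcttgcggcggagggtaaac

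Upstream sequence was at hand for 7 of the 9 members, Irx1 and Osr2 being not analysed here. Searched on both strands were TGGGAA (RBPJ), CTTTGA (TCF/LEF, the factors through which Wnt signals act on DNA), GTTAAT (HNF1), GGGCGG (the GC box), TATAAA and a p53 half-site. The RBPJ core was found before Pou3f3, Irx2 and Irx3, against 21.6% of 32851 promoters of the same length. GC boxes stood before Cdh6, Irx2, Pou3f3 and Pax8, against 32.7% of promoters; those of Cdh6 were a pair that overlapped, and Irx2 had 2. GTTAAT was found before Tfap2b only (6.43% of promoters), while a p53 half-site (7.13%), CTTTGA (13.8%) and TATAAA (12.4%) were found in none of the 7. The Lhx1 window held none of the motifs, and 26 CpG sites, against a median of 6 over all promoters. A match is a string of letters and not a measured site.

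The arrays differed in a way that bears on every value below. Replicate 1 was hybridised on slide 1 and replicates 2 and 3 on slide 2, so the slide and the replicate cannot be told apart. Over all tested probes the correlation between replicates 2 and 3 was 0.93, that between replicates 1 and 2 was 0.06 and that between replicates 1 and 3 was −0.15. The targeted gene Trp53 had −0.67 ± 0.36 on its brighter probe (limma, adjusted p = 0.279), with −1.08, −0.47 and −0.45 in replicates 1, 2 and 3, and its dimmer probe had 0.16 ± 0.13; whether either probe lies in the deleted part is not given, so they do not check the labels. Of 12 kidney markers, 10 were well above background in both genotypes on all 8 arrays. The summed level of the 12, which include the member Lhx1, was 23911, 25035 and 25667 intensity units in null replicates 1, 2 and 3. It was 26889, 29967 and 28504 in the wild-type ones, higher in each replicate. Such a sum weighs bright genes most, Cdh16 among them at a mean log2 intensity of 13.7. Of 10 tested, 8 had a negative mean ratio, against 5898 of 12000 genes. With median centring it was 3 of 10 against 2941 of 12000, and the list's median was −0.12 relative to all genes. Over the 20865 tested probes, limma called 0 (0%) at an adjusted p under 0.05, and 3583 (17.2%) had an unadjusted p under 0.05. With 3 replicates, a permutation of signs cannot go below p = 0.25.

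**Figure D1:**
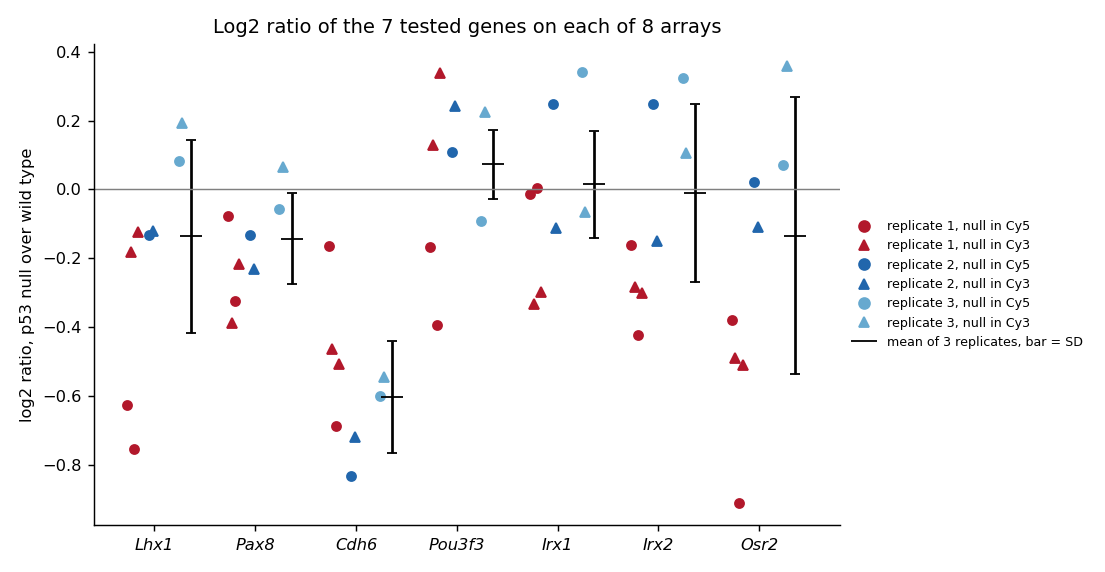
Log2 ratio of null over wild type (y axis) of the brightest tested probe of 7 genes (x axis), with 1 point per array, coloured by replicate and shaped by the dye of the null RNA; the bar is the mean ± SD of the 3 replicates. Cdh6 is the only gene with every array below 0, and the 4 arrays of replicate 1 form the lower part of the Osr2 points.

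Lhx1, a LIM homeobox factor needed for the mesenchymal aggregate to form a nephron, was read by 1 probe that was spotted 10 times on each array. Its ratios were −0.63, −0.18, −0.76 and −0.12 on the arrays of replicate 1, −0.13 and −0.12 in replicate 2, and 0.08 and 0.19 in replicate 3. Replicates 1 and 2 were thus below 0 on all their arrays and replicate 3 above 0 on both. The replicate values were −0.42, −0.13 and 0.14, with a mean of −0.14 ± 0.28 (limma, adjusted p = 0.588) and a 95% interval of −0.49 to 0.22. Within replicate 1 the arrays separated by dye, with a mean of −0.69 where the null RNA was in Cy5 and −0.15 where it was in Cy3. The spots of an array ran from −0.75 to −0.45 on the first array of that replicate and from −0.30 to 0.14 on the last.

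Pax8 encodes a paired box factor that acts with Pax2 to specify the nephric lineage. The ratio was negative on 7 of 8 arrays, with −0.08, −0.39, −0.33 and −0.22 in replicate 1, −0.13 and −0.23 in replicate 2, and −0.06 and 0.07 in replicate 3. The mean was −0.14 ± 0.13 (limma, adjusted p = 0.416), and replicate 3 as a whole was at 0.0049. The related gene Pax2, like Lhx1 spotted 10 times, had −0.05 in each of the 3 replicates (limma, adjusted p = 0.703).

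Cdh6 had −0.16, −0.46, −0.69 and −0.51 on the arrays of replicate 1, −0.83 and −0.72 in replicate 2, and −0.60 and −0.55 in replicate 3. The 4 arrays of slide 2 lay within or below the range of the 4 arrays of slide 1. By replicate it was −0.46, −0.78 and −0.57 (SE 0.094, 95% interval −0.86 to −0.35). Its unadjusted p in limma's fit of the 3 replicates was 0.0025, and its adjusted p was 0.279. Of all probes 17.2% had an unadjusted p under 0.05, a wider cutoff, and the share down to 0.0025 is not given here. No difference between the slides was called for Cdh6 (slide 2 minus slide 1, −0.22; limma, adjusted p = 0.160). With all 8 arrays in the fit and the replicate as a block, the mean was −0.60 and the adjusted p 0.0443, in a fit that called 5.54% of probes. Without replicate 1 the mean was −0.68 with an adjusted p of 3.74e-09, where 56.1% of all probes were called. Over the 18 alternatives, of which Aquantile scaling leaves every log ratio as it is, the ratio ran from −1.16 to −0.51 and limma's adjusted p from 3.74e-09 to 0.99995. The largest size, −1.16, is over 1.5 times the value given here and came from the scanner program's own log ratio; the same held for the authors' value table. In whole kidneys, fewer cells that express Cdh6 and less Cdh6 RNA per cell cannot be told apart.

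Marker lists of other cell types were read beside these ratios. The summed level of 10 stroma markers was 58263 to 65538 intensity units in the null replicates and 75162 to 79613 in the wild-type ones. All 10 had a negative mean ratio, against 5898 of 12000 genes. With median centring 8 of 10 did, against 2941 of 12000, and the list's median was −0.23 relative to all genes. The 9 measured blood markers summed to 130423, 167286 and 195076 in null replicates 1, 2 and 3 and to 167190, 88122 and 84905 in the wild-type ones. The list's median ratio was 0.23, 0.64 and 0.58 in replicates 1, 2 and 3, and 4, 1 and 1 of the 9 genes were lower; Hbb-y, an embryonic globin, had a mean of −1.58 and was the one gene with a negative mean. The 7 liver markers summed to 2643, 5158 and 4513 in the null replicates and to 3247, 1922 and 1893 in the wild-type ones, lower in replicate 1 and higher in replicates 2 and 3. For 8 endothelium markers the sums were 14571, 15022 and 14551 in null and 14381, 9873 and 9370 in wild type, near each other in replicate 1. The 8 skeletal muscle markers, at 1178, 1882 and 1649 against 1118, 1495 and 1434, were higher in null in every replicate. The 7 nerve and glia markers on the array had 1041, 1480 and 1355 against 1040, 1071 and 1075. Gonad and adrenal markers summed to 2388 to 2579 in null and 2539 to 2668 in wild type. Of the 12 listed, 4 were well above background on all 8 arrays in each genotype, among them Dhh (0.07, 1.25 and 1.08 by replicate). Amh, Dbh, Lhx9 and Th were well above background on none of the arrays, and the same was so for the liver gene Ttr. Of 5 tested, 3 had a negative mean. In limma's main fit 2 of the 5 (40%) had an unadjusted p under 0.05, both with a positive ratio, against 18.2% of all genes. Ureteric bud and collecting duct markers summed to 49155, 59334 and 57927 in null and to 54338, 66242 and 63401 in wild type. The sum, which weighs bright genes most, was lower in null in every replicate. Of 12 tested, 7 had a negative mean, against 5898 of 12000 genes, and with median centring 4 did, against 2941 of 12000. The list's median ratio was −0.28, −0.08 and 0.02 in replicates 1, 2 and 3. The part of any of these in the ratio of Cdh6 or another member was not tested.

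**Figure D2:**
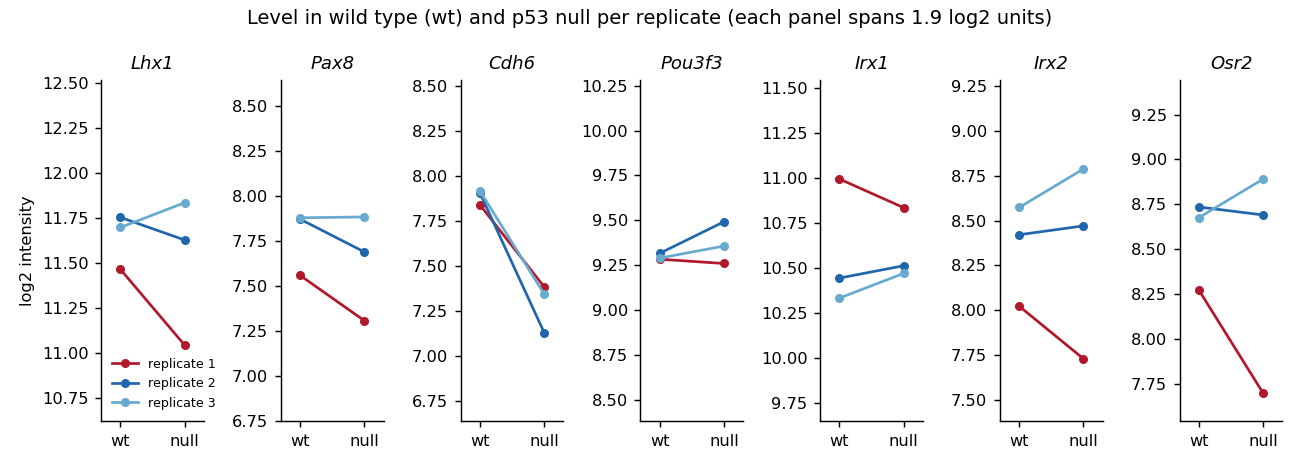
Normalised log2 intensity (y axis) of the brightest probe of each tested gene in wild type (wt) and p53 null RNA (x axis), 1 line per replicate; panels span the same range but start at different levels, since levels of different probes cannot be compared. Cdh6 is lower in null than in wild type in each replicate (7.38, 7.13 and 7.34 against 7.84, 7.91 and 7.92), while the lines of Lhx1, Irx2 and Osr2 differ in direction between replicates.

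Among the genes of the middle and distal segments, none had a mean ratio beyond its spread. Pou3f3, a POU domain factor required for the loop of Henle and the distal tubule, had −0.17, 0.13, −0.40 and 0.34 on the arrays of replicate 1, 0.11 and 0.24 in replicate 2, and −0.09 and 0.22 in replicate 3. The sign followed the dye in replicates 1 and 3, with −0.28 for null RNA in Cy5 and 0.23 for null RNA in Cy3 in replicate 1. The mean over replicates was 0.07 ± 0.10 (limma, adjusted p = 0.630). A second, dimmer Pou3f3 probe had −0.25, 0.16 and 0.31 by replicate and the same mean of 0.07, with a larger SD of 0.29.

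Osr2, a zinc-finger gene of the odd-skipped family, had the widest spread among the brightest probes. Its ratio was −0.38, −0.49, −0.91 and −0.51 on the arrays of replicate 1, 0.02 and −0.11 in replicate 2, and 0.07 and 0.36 in replicate 3. The arrays of the 2 slides did not overlap. The mean of −0.13 ± 0.40 (limma, adjusted p = 0.688) lies between the replicate values of −0.57, −0.04 and 0.22 and describes none of them. Its paralog Osr1, a marker of the nephron progenitors, had −0.37, −0.59 and −0.38 (mean −0.45 ± 0.12; limma, adjusted p = 0.279), and a second Osr1 probe had −0.18, −0.40 and −0.28.

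Irx1 and Irx2 encode Iroquois homeobox factors and lie next to each other, followed by Irx4. The brightest Irx1 probe had −0.01, −0.33, 0.004 and −0.30 on the arrays of replicate 1, 0.25 and −0.11 in replicate 2, and 0.34 and −0.07 in replicate 3. In each replicate the arrays with null RNA in Cy5 were higher, by 0.31, 0.36 and 0.41, so the mean over both dyes is the value to read. That mean was 0.02 ± 0.16 (limma, adjusted p = 0.937). The second Irx1 probe had −0.57, −0.03 and 0.27 by replicate, with a mean of −0.11 ± 0.43 (limma, adjusted p = 0.756).

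For Irx2, the brightest of 3 tested probes had −0.16, −0.28, −0.42 and −0.30 in replicate 1, 0.25 and −0.15 in replicate 2, and 0.32 and 0.10 in replicate 3. Its mean was −0.01 ± 0.26 (limma, adjusted p = 0.970), and the other 2 probes had 0.06 ± 0.12 and −0.02 ± 0.17. The 3 probes shared a negative value in replicate 1 and a positive one in replicate 3. Irx4 had −0.12, −0.24 and −0.20 by replicate (mean −0.19 ± 0.06; limma, adjusted p = 0.302), and Irx6 had 0.02 ± 0.06.

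**Figure D3:**
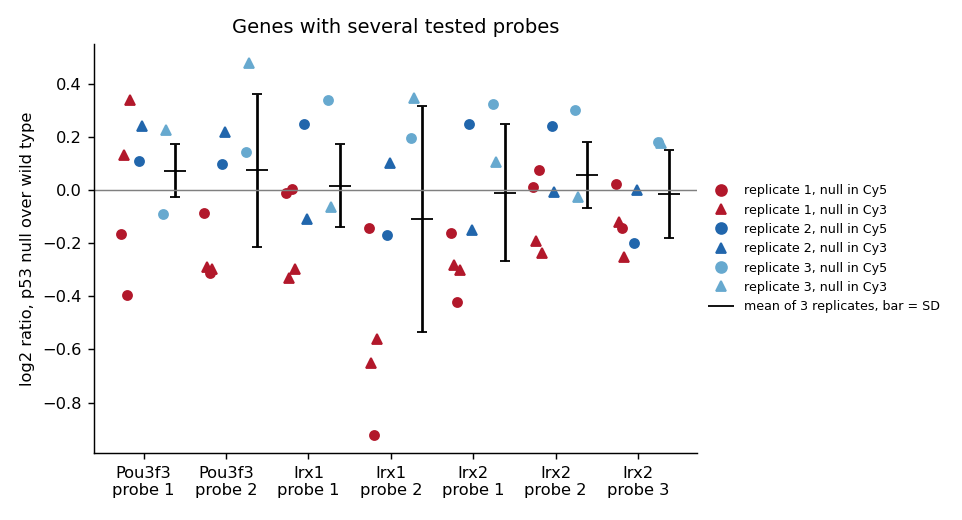
Log2 ratio of null over wild type (y axis) for each tested probe of the genes with more than 1 (x axis), 1 point per array, coloured by replicate and shaped by dye, with the mean ± SD of the 3 replicates. Probe 2 of Irx1 and probe 2 of Pou3f3 show replicate 1 further below replicates 2 and 3 than the brighter probe of the same gene.

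Irx3, the Iroquois gene of the other cluster, was not well above background in either genotype on any of the 8 arrays, so no ratio is given. Its neighbour Irx5 was well above background on 4 of 8 arrays in each genotype and was not tested either. Tfap2b, an AP-2 factor needed in the distal tubule, had 3 probes. The brightest reached that level on 4 of 8 arrays for null RNA and on 5 of 8 for wild-type RNA, of which 3 and 4 were arrays of replicate 1 and none was of replicate 2. The second was well above background on 1 and 2 arrays and the third on none. All 3 probes failed the filter on dim probes, so Tfap2b was not tested. The related Tfap2a had 0.09 ± 0.12 (limma, adjusted p = 0.589).

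The 7 tested genes therefore had 11 tested probes, and the brightest probe of each was well above background in both genotypes on all 8 arrays. Of the 7, limma called 0, where 0% of probes were called in all, and 1 (14.3%) had an unadjusted p under 0.05, against 18.2% of 12000 genes. A ratio below 0 in all 3 replicates was seen for Cdh6 alone, 14.3% of the members against 19.7% of genes. Of the 3 members with several tested probes, the means of the probes differed in sign for Irx1 and Irx2, as they did for 957 of 3777 genes with several probes.

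The members were also read by replicate. In replicate 1 all 7 genes, and all 11 probes, had a negative ratio, against 53.9% of all genes; in replicate 2 it was 4 of 7 against 46.8%, and in replicate 3 it was 1 of 7 against 46.2%. With median centring in place of loess the counts were 7, 1 and 1 of 7, against 74.7%, 19.5% and 17.1% of genes. The members' median was −0.29, −0.04 and 0.14 in replicates 1, 2 and 3, where that of all genes was −0.02, 0.02 and 0.03. When the mean of replicates 2 and 3 was tested against replicate 1 over all probes, limma called a difference for 44.4% of probes and 47.9% of genes. Among the members it was called for 3 of 7, which is near that share. Osr2 differed by 0.66 (adjusted p = 1.06e-04), Lhx1 by 0.43 (adjusted p = 0.0071) and Irx2 by 0.42 (adjusted p = 0.0059), each higher on slide 2. The second probes of Irx1 (0.69, adjusted p = 7.97e-05) and Pou3f3 (0.48, adjusted p = 0.0020) differed too, where the brighter probes of these genes did not pass. The spread in this test comes from replicates 2 and 3 alone, and limma draws that of each probe towards a value shared by all probes. In the fit without replicate 1, which rests on the same 2 replicates, the members' SE ran only from 0.0696 (Irx1) to 0.0736 (Lhx1). These adjusted p therefore do not measure a gene's own spread between replicates 2 and 3.

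**Figure D4:**
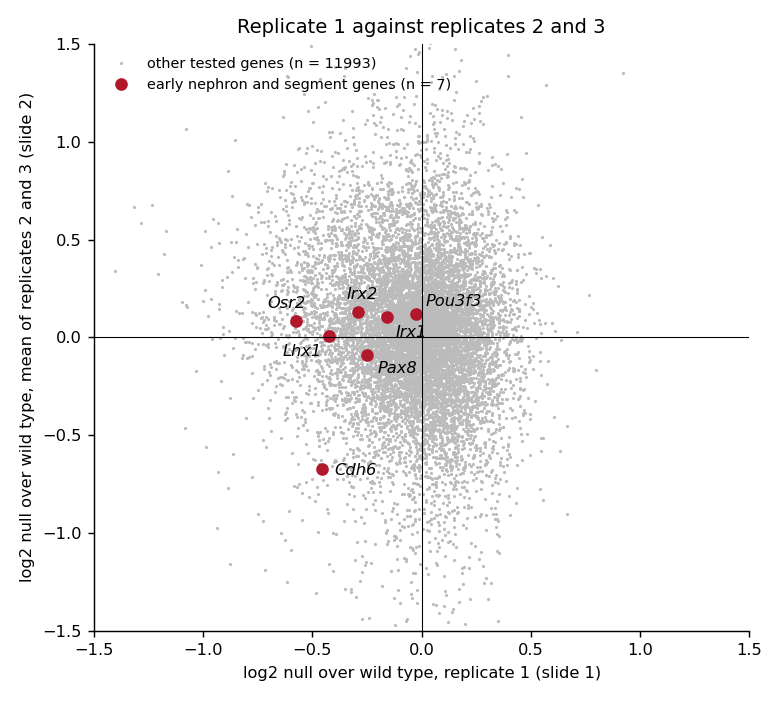
Log2 ratio in replicate 1 on slide 1 (x axis) against the mean of replicates 2 and 3 on slide 2 (y axis), 1 point per gene by its brightest tested probe, with the 7 members in red and 11993 other genes in grey; 94 genes lie outside the axes, which end at 1.5 in each direction. All 7 members lie left of 0, and only Cdh6 and Pax8 lie below 0 on both slides.

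The fit that gives both slides equal weight takes its spread from the same 2 replicates and called 40.8% of probes. In it Cdh6 (−0.57, adjusted p = 2.82e-08), Osr2 (−0.24, adjusted p = 0.0028), Lhx1 (−0.21, adjusted p = 0.0098) and Pax8 (−0.17, adjusted p = 0.028) passed. None of these but Cdh6 passed in another alternative. Leaving out replicate 1 turned the means of Lhx1, Irx2 and Osr2 to 0.006, 0.13 and 0.09.

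The genes around the members in the forming nephron were set beside them as lists. Of 17 measured genes of the renal vesicle and S-shaped body, limma called 0; 6 with a negative and 1 with a positive ratio had an unadjusted p under 0.05, together 41.2% against 18.2% of all genes. The list's median was −0.25, with −0.13, −0.27 and −0.27 in replicates 1, 2 and 3, and 8 of 17 (47.1%) were negative in all 3, against 19.7% of genes. With median centring it was 3 of 17 (17.6%) against 9.12% of genes, and the list's median was −0.18 relative to all genes. Hes1, a Notch effector, had −0.43 ± 0.12, while Heyl, another Notch effector, had 0.89 ± 0.55 (each limma, adjusted p = 0.279). Heyl was also the one gene called among 90 other listed kidney genes when all arrays were fitted with the replicate as a block (0.88, limma, adjusted p = 0.0285). That is 1.11% of them, where 6.31% of all genes were called.

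**Figure D5:**
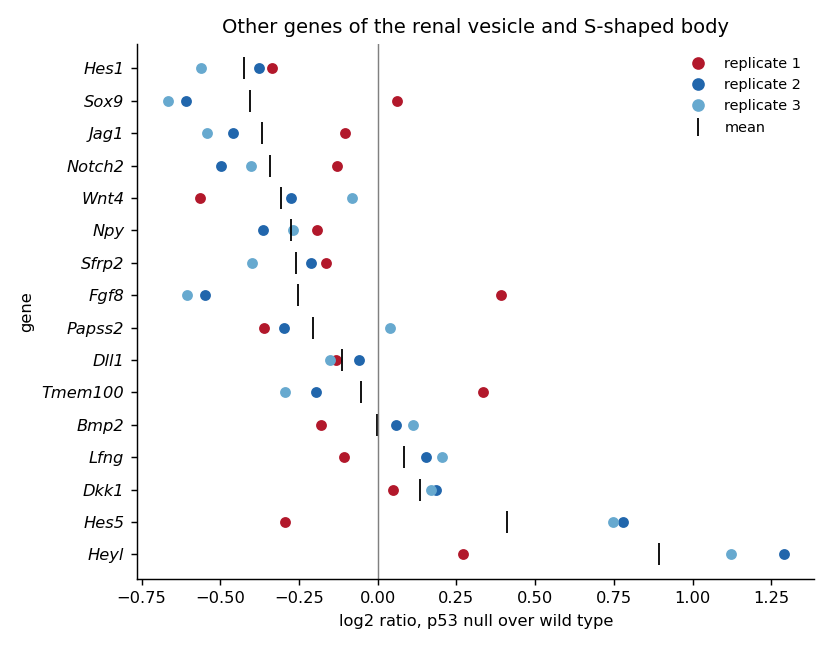
Log2 ratio of null over wild type (x axis) of 16 genes of the renal vesicle and S-shaped body (y axis), with 1 point per replicate and a tick at the mean, ordered by the mean. Of the 16 genes drawn, 12 have a mean below 0, and Hes5 and Heyl have the highest means.

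Of 14 nephron progenitor genes, 2 had an unadjusted p under 0.05, both negative, and the median was −0.02; it was −0.25, with 9 of 14 negative, by the scanner program's log ratio, and −0.12 relative to all genes with median centring. They were Osr1 and Uncx (−0.39 ± 0.16; limma, adjusted p = 0.279), and Six2, which keeps the progenitors from differentiating, had −0.31 ± 0.25 (limma, adjusted p = 0.303). Among 9 proximal and glomerular regulators the median was −0.04 (−0.19 by the scanner program's log ratio); Foxc2 had −0.16 ± 0.30 and the cell cycle inhibitor Cdkn1c −0.27 ± 0.58. Among 9 loop and distal regulators the median was −0.05 (−0.14 by the scanner program's log ratio) and none had an unadjusted p under 0.05; Sim2 had 0.33 ± 0.35, Gata3 −0.41 ± 0.46 and Esrrg −0.30 ± 0.39.

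Products of the mature segments were set beside these regulators. Of 11 proximal tubule products, 10 had a positive mean, with a median of 0.66 (1.06 by the scanner program's log ratio) that was −0.19, 0.91 and 1.14 in replicates 1, 2 and 3, and 10 of 11 differed between the slides against 47.9% of genes. Slc7a9 had 0.72 ± 0.65 (limma, adjusted p = 0.292) and Slc2a2 0.25 ± 0.14 (limma, adjusted p = 0.287). Of 8 loop and distal products, 7 had a positive mean and the median was 0.29, with −0.08, 0.49 and 0.42 by replicate; the median was 0.82 by the scanner program's log ratio and 0.54 with normexp at offset 10. Cldn16 had 0.41 ± 0.26 (limma, adjusted p = 0.279), Umod 0.48 ± 0.45 and Tmem52b 0.17 ± 0.04. The members' own median on slide 2 was 0.09, with values from −0.68 (Cdh6) to 0.13 (Irx2). The 2 product lists had medians of 1.08 and 0.40 on that slide. Whether these medians differ was not tested.

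Relatives and partners of the members were measured as well. Of 16 family paralogs, 11 had a negative mean, against 5898 of 12000 genes. With median centring 7 of 16 did, against 2941 of 12000, and the list's median was −0.14 relative to all genes. In limma's main fit 2 (12.5%) had an unadjusted p under 0.05, against 18.2% of genes. They were Osr1 and the cadherin gene Cdh3 (−0.28 ± 0.03, limma, adjusted p = 0.279). Of 11 cofactors and neighbours, among them the LIM-domain binding partners of Lhx1, 1 had an unadjusted p under 0.05, Ssbp3 (0.24 ± 0.12; limma, adjusted p = 0.288); Ldb2 had −0.20 ± 0.17 and Kctd1 −0.36 ± 0.40. The genes most like Cdh6 over the 8 arrays, by the root mean square difference of their ratios among 11740 genes, were Crispld2 (0.078), Prkar1b (0.081) and Nfkb2 (0.088). Their means were −0.58, −0.55 and −0.57.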

How the data were processed

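Per the labels, total RNA of embryonic kidneys was labelled by direct incorporation of Cy3 or Cy5 into cDNA and hybridised in dye-swapped pairs. Intensity of spots and of their background, with flags, is what the authors deposited for each array. Feature Extraction appears as version 10.5.1.1 in those files, per the file headers, and as 6.1 in the submitters' processing notes. The deposited value table holds log10 ratios of null over wild type, equal to the program's own log ratio to within 4.94e-06 after the sign was turned; per the labels and this match its scale, centring and direction are known, its column medians lay between −0.0024 and 0.011, and it served as an alternative.

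Median spot signal was corrected with normexp (offset 50) and normalised by loess (limma 3.58.1, run in R 4.3.3); control spots had weight 0, outlier-flagged spots (106 to 348 an array) were set to missing, and 0 spots were saturated. The offset compresses ratios of dim probes. Spots of a probe, then arrays of a dye orientation, then both orientations were averaged to 1 value per replicate. A probe was kept (20880) if in every replicate 1 genotype was well above background on 50% of arrays or more, and 20865 were tested against 0 with Benjamini-Hochberg adjustment (two-sided, threshold 0.05). A gene is represented by its brightest tested probe. Levels per genotype were taken after loess and Aquantile scaling. The number of replicates, 3, limits the precision, since the arrays of a replicate carry the same RNAs. Probes were named by RefSeq identifier through a GRCm38.p6 table (25097 of 41174 named). The array design is on mm9 per the file headers, so no probe coordinates are printed.

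The same replicate number marks the same pair of RNAs, so the numbers pair the arrays; the within-replicate correlation was estimated at 0.72 (duplicateCorrelation). The fit was tested on simulated data. Members and gene lists were chosen with earlier results of these data known. Named genes are the members, the 3 genes with the smallest unadjusted p of each list of kidney regulators, products and relatives, the genes most like a member with 1 sign on all arrays, and a fixed set of paralogs; a few of these are left out of the text, though every count and median includes them; the brightest probes stand for genes throughout. The alternatives were background correction, normalisation, filter, probe choice, each replicate left out, slide, block, dye and the arrays of replicate 1; the second pair of replicate 1 and the deposited value table were added after the data were seen.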

Additional observations from a re-analysis of the deposited data

Results flagged for a closer look

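The difference between the slides (mean of replicates 2 and 3 minus replicate 1) passed limma's test for Lhx1 (0.43), Irx2 (0.42), Osr2 (0.66), the second probe of Pou3f3 (0.48) and the second probe of Irx1 (0.69). Their adjusted p lay between 7.97e-05 and 0.0071, and 44.4% of all probes passed the same test. With 1 replicate on slide 1, what differs between the slides beyond the embryos was not tested.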

How the results depend on the processing

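Of the 18 alternatives tried, Aquantile scaling after loess leaves every log ratio as it is and the 2 other filters on dim probes leave those of the tested genes, so these do not test the direction. In the rest, Cdh6 kept a negative ratio and Pax8 did so too; the direction of the other 5 tested genes changed in at least 1. The number of members with a negative ratio in all 3 replicates was 2 in place of 1 with normexp at offset 10, without background subtraction, with the scanner program's log ratio, with the deposited value table, and with arrays of either dye orientation alone. Centring each array on its median in place of loess moved the median of all genes to 0.154. The members' median then was 0.12 (−0.03 relative to all genes). Lhx1 was 0.12, Irx2 0.15 and Osr2 0.036, or −0.03, −0.008 and −0.12 relative to all genes. With that centring 6 members in place of 3 differed between the slides, a count for which no share of all genes is given. With the mean of all probes, Irx1 was −0.048 and Irx2 0.010. Arrays with null RNA in Cy5 gave −0.088 for Pou3f3 and 0.093 for Irx2, those with null RNA in Cy3 gave −0.16 for Irx1, and the first pair of replicate 1 gave 0.014 for Irx2.

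With a replicate left out, the members' median ranged from −0.22 (without replicate 3) to 0.085 (without replicate 1). The members called ranged from 0 to 1, and the members negative in every remaining replicate from 1 to 4. The other listed kidney genes called ranged from 0 to 60 of 92. The 1 member and the 60 others (65.2%) were called without replicate 1, where 60.1% of all genes were called. Lhx1 ranged from −0.27 to 0.0061, Irx2 from −0.12 to 0.13 and Osr2 from −0.31 to 0.085, each positive only without replicate 1. Irx1 ranged from −0.045 to 0.10 and was negative without replicate 2 or 3. The fit with slides weighted equally called 4 members and 46 of 92 other listed genes (50%), where 43.2% of all genes were called. It gave −0.028 for Irx1. The replicate block on all 8 arrays called 1 member, Cdh6, and 1 other listed gene, where 6.31% of all genes were called, and changed no other call of these genes. The slide difference was not run without a replicate, since 2 values leave no spread, nor under the choices of dye, pair or probe. The cause of these changes was not tested. The depth limit is the signal over background, which kept Irx3 and Tfap2b out.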
